A study of Rattus norvegicus with 12 samples.

Results

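The comparison described here is the effect of an aorto-caval shunt that left atrium and left ventricle have in common, the mean over both chambers of the shunt minus sham difference in log2 expression. An aorto-caval shunt is a surgical opening between aorta and vena cava that returns arterial blood to the heart and loads it with extra volume. All 12 of the 12 arrays of the series entered it, 6 from shunted and 6 from sham-operated rats. The 4 groups were left atrial appendage after sham, left atrial appendage after shunt, left ventricular free wall after sham and left ventricular free wall after shunt, each taken 28 days after the operation from male Sprague Dawley rats with no other treatment named in the labels. Each group had 3 arrays, and each array held RNA from a pool of 2 tissues. The labels do not say whether an atrial and a ventricular pool came from the same rats.

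A heart that ejects more blood at each beat stretches its walls in diastole, and its myocytes lengthen. Stretched myocytes are known to raise the natriuretic peptides, which make the kidney excrete salt, and to switch back on contractile genes of the fetal heart, while fatty acid oxidation, the main fuel route of the adult heart, is often lowered. Non-muscle cells of the wall (fibroblasts, endothelium, macrophages) can respond too, through matrix, growth factor and immune genes.

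The chamber labels were checked against marker genes. The atrial myosin light chains Myl4 and Myl7 and the calcium pump inhibitor Sln had group means of 13.05 or more in left atrium and of 7.21 or less in left ventricle, on the log2 scale of the array values. The ventricular light chain Myl2 had means of 13.63 and 13.68 in left ventricle and of 4.52 and 5.24 in left atrium. None of the 4 adipocyte markers and neither of the T and B cell markers on the array reached the level needed for testing. An array's 3 prime minus 5 prime difference of the hexokinase control probe sets, which rises as RNA is degraded or labelled in shorter pieces, lay between 0.84 and 1.10 (log2) on the 6 sham arrays. It was wider apart on the shunt arrays: 0.80, 0.94 and 1.44 in atrium and 1.23, 0.82 and 1.18 in ventricle, in replicate order. Atrial shunt pool 3, with the highest value, also lay farthest from its group mean over all probe sets, by a root mean square of 0.20 against 0.09 to 0.16 on the other 11 arrays.

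Of 10606 genes, each read by its brightest probe set, 537 passed the test for the common effect (limma, Benjamini-Hochberg adjusted p under 0.05 over all 18625 probe sets), which is 5.06% of the genes. The shunt raised 252 of them (2.38% of all genes) and lowered 285 (2.69%). The changes were small: the median size over the called genes was 0.30 on the log2 scale, 67 genes reached 0.5 and 10 reached 1. In 394 called genes the 3 shunt arrays lay wholly to the same side of the 3 sham arrays in each chamber, 177 higher and 217 lower. Of all genes tested, 6.41% were set apart in this way, 2.91% higher and 3.5% lower. Of the 537 genes, 411 (76.5%) passed in neither chamber when its own 6 arrays were contrasted in the same fit, 194 of them higher and 217 lower after shunt. Of the 148 genes called in atrium alone (1.4% of all) and the 12 called in ventricle alone (0.113%), 120 and 11 were also called in common. Counted over probe sets, 894 of 18625 (4.8%) passed, 366 higher (1.97%) and 528 lower (2.83%).

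The number of calls depended on single arrays. Leaving out any of 10 of the 12 arrays lowered the probe set count more than 1.5 times, down to 309 without atrial sham pool 3, while it rose to 1190 without atrial shunt pool 3 and to 1009 without ventricular shunt pool 2. Of the 537 genes, 153 (64 higher and 89 lower) were called whichever of the 12 arrays was left out. For genes given with an adjusted p in what follows, the number of these 12 refits that called the gene is given wherever it was under 12. The 3 shunt arrays of highest hexokinase difference (atrial pool 3, ventricular pools 1 and 3) were also left out together. This leaves 1 array, pool 2, in the ventricular shunt group, so effect sizes are given from that fit. Its counts are printed only where the settings are compared, and nothing is concluded from them.

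**Figure D1:**
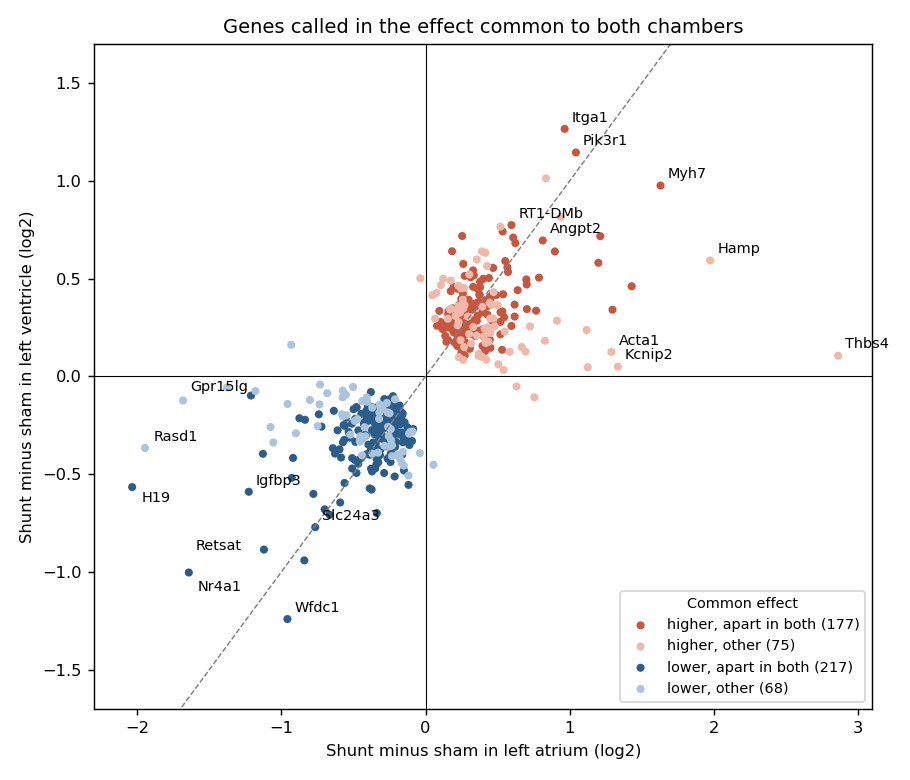
Each point is 1 of the 537 genes called in the common effect, at its shunt minus sham difference in left atrium (horizontal axis, log2) and in left ventricle (vertical axis, log2); dark points are the 177 higher and 217 lower genes whose shunt and sham arrays did not overlap in either chamber, pale points the others, and the dashed line marks equal effects. Most genes sit near the origin, Myh7 and Itga1 stand out above it, Wfdc1 and Nr4a1 below it, and Thbs4, Rasd1 and Gpr15lg lie near the horizontal axis, with large atrial and small ventricular differences.

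Genes of myocyte load were among the largest common rises. Myh7, the slow beta myosin heavy chain that the fetal heart uses, had values of 7.31, 6.91 and 6.87 in atrial sham and 8.79, 8.89 and 8.30 in atrial shunt pools. In ventricle, where the gene is much more strongly expressed, it had 10.84, 10.43 and 10.55 after sham and 11.55, 11.82 and 11.39 after shunt. Every shunt array was above every sham array of its chamber. The common rise of Myh7 was 1.30 ± 0.12 on the log2 scale (SE over 12 arrays), 2.47-fold, with an adjusted p of 0.000876. Myh6, the fast alpha chain that shares much of its sequence with Myh7, differed by -0.01 (adjusted p = 0.923).

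Nppb, which encodes B-type natriuretic peptide, had 12.32, 11.98 and 12.02 after sham and 12.76, 12.88 and 12.78 after shunt in atrium, and 11.14, 10.54 and 11.14 after sham and 11.27, 11.61 and 11.35 after shunt in ventricle. The arrays were apart in both chambers, narrowly so in ventricle. Nppb rose by 0.59 ± 0.11 (adjusted p = 0.0158) and passed in neither chamber alone. Its relative Nppa, atrial natriuretic peptide, did not pass in common, with a difference of 0.65 ± 0.20 (adjusted p = 0.0891). Its values were 14.18, 14.11 and 14.14 in atrial sham, 14.29, 14.23 and 14.22 in atrial shunt, 10.11, 9.61 and 10.19 in ventricular sham and 10.48, 11.99 and 11.04 in ventricular shunt pools. The groups did not overlap in either chamber, but the atrial levels were at the top of the array's range (the highest value of the table is 14.29) and moved by only 0.10, against 1.20 in ventricle. Leaving out 1 array brought Nppa past the threshold in 1 of 12 fits.

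Of the 20 measured genes on the list of load and fetal programme genes, 5 rose and none fell (25% called): Myh7, Nppb, Acta1, Ankrd1 and Hamp. The list's median was 0.02, with 10 genes above and 10 below 0, against a median of -0.0041 over all 10606 genes. Without 1 array, 3 to 6 members rose, the fewest without atrial sham pool 2 or 3. Ankrd1, a stretch-responsive nuclear and sarcomeric ankyrin protein, moved equally in both chambers, by 0.26 in atrium and 0.27 in ventricle, and rose by 0.26 ± 0.05 in common (adjusted p = 0.0208, kept in 9 of 12 fits). Acta1, the skeletal alpha actin of the fetal heart, rose by 0.71 ± 0.12 in common (adjusted p = 0.0122), but its chamber effects were 1.29 and 0.12 and its ventricular arrays overlapped. The same holds for Hamp, the iron hormone hepcidin, which rose by 1.28 ± 0.26 (adjusted p = 0.0206, kept in 10 of 12 fits, lost without atrial sham pool 2 or 3), with 1.97 in atrium and 0.59 in ventricle. Of the 36 sarcomere and Z-disc genes (19.4% called, against 5.06% of all genes), 5 rose and 2 fell, Pdlim3 (a Z-disc LIM protein, -0.44 ± 0.08, adjusted p = 0.0125) and Tmod1 (the cap of the thin filament, -0.18 ± 0.04, adjusted p = 0.031, kept in 3 of 12 fits). Ventricular light chain Myl3, on the same list, rose by 0.59 ± 0.15 in common (adjusted p = 0.0445, kept in 3 of 12 fits), with 1.12 in atrium and 0.05 in ventricle.

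**Figure D2:**
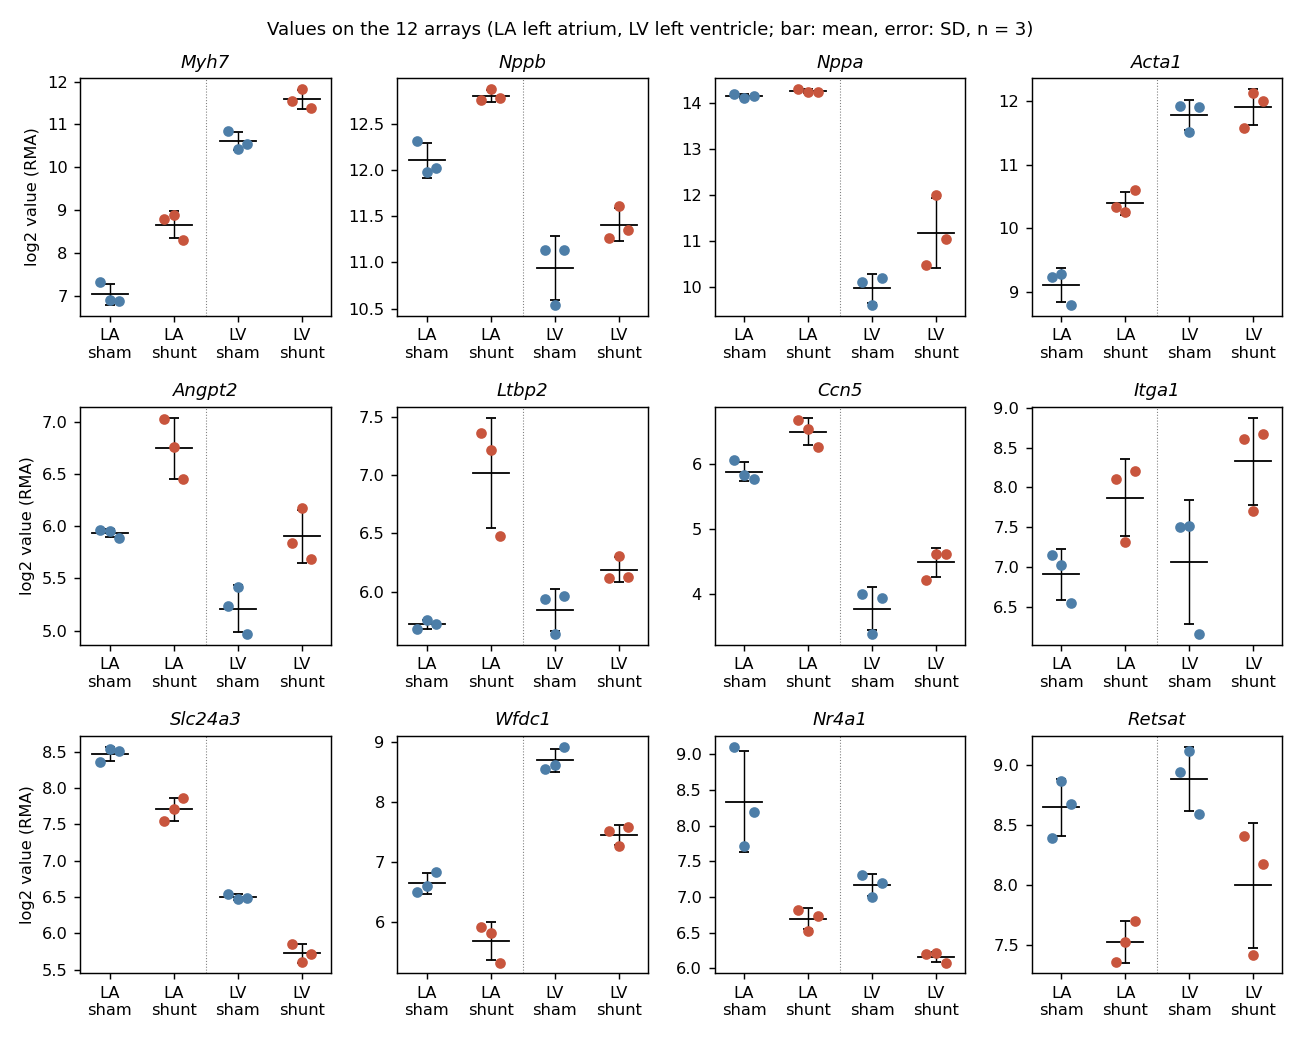
Log2 values of 12 genes on the 12 arrays, sham in blue and shunt in red, with LA for left atrium and LV for left ventricle; the bar is the group mean and the error bar the SD of 3 arrays. Myh7, Nppb, Angpt2 and Ccn5 step up in both chambers and Slc24a3, Wfdc1, Nr4a1 and Retsat step down, while Acta1 moves in atrium and Nppa in ventricle.

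On the matricellular, collagen and fibroblast lists every called gene rose. Of 37 matricellular, proteoglycan and TGF-beta genes 9 rose (24.3% called) and none fell, with a median of 0.14. Ccn5, a matricellular protein without the C-terminal domain of its CCN relatives, had 6.05, 5.83 and 5.76 in atrial sham, 6.67, 6.54 and 6.26 in atrial shunt, 4.0, 3.39 and 3.94 in ventricular sham and 4.22, 4.62 and 4.61 in ventricular shunt pools. Its shunt arrays were all above the sham arrays of their chamber, and its ventricular sham arrays were at or under the level of 4.01 needed for testing. Ccn5 rose by 0.66 ± 0.12 in common (adjusted p = 0.0146) and passed in neither chamber alone. Ltbp2, a protein of the elastic microfibrils, rose by 0.82 ± 0.13 (adjusted p = 0.00782), with 1.30 in atrium and 0.34 in ventricle. Bgn, the proteoglycan biglycan, rose by 0.46 ± 0.10 (adjusted p = 0.0244, kept in 6 of 12 fits), and Aspn, its relative asporin, by 0.45 ± 0.10 (adjusted p = 0.0325, kept in 2). Tgfbr1, a TGF-beta receptor kinase, rose by 0.18 ± 0.04 (adjusted p = 0.0334, kept in 3 of 12 fits), with 0.07 in atrium and 0.29 in ventricle. The 1 other tested probe set of Tgfbr1 had the opposite sign.

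Of 39 collagen and basement membrane genes 5 rose (12.8%) and none fell: Col4a2, Col4a5, Sparc, Plod2 and Lox. Col4a2, a chain of basement membrane collagen, rose by 0.42 ± 0.05 (adjusted p = 0.00207), and Lox, which crosslinks collagen, by 0.40 ± 0.10 (adjusted p = 0.0415, kept in 2 of 12 fits). The fibrillar chains Col1a1 and Col3a1 differed by -0.02 ± 0.09 and 0.03 ± 0.06 (adjusted p = 0.915 and 0.796). Called matrix genes outside these lists also fell, among them, named after their values were seen, Col6a6, a chain of microfibrillar collagen (-0.67 ± 0.10, adjusted p = 0.00576), and Srpx (-0.50 ± 0.06, adjusted p = 0.00207). Of 30 fibroblast genes 6 rose (20%), and the lowest value on the list, of a gene that did not pass, was -1.697. Thy1, a surface protein of fibroblasts, rose by 0.37 ± 0.06 (adjusted p = 0.0123). Its group means, 4.34 to 4.80, were near the level of 4.01 needed for testing. Of the 5 defining fibroblast markers only Thy1 passed, while Pdgfra, Tcf21, Col1a1 and Dcn differed by -0.104, -0.123, -0.022 and 0.018. In pooled tissue, more cells of a type and more RNA per cell cannot be told apart.

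The counts of the matrix lists followed single arrays. On the matricellular list 2 genes rose without atrial sham pool 3 and 13 without atrial shunt pool 3, on the collagen list 1 to 9 and on the fibroblast list 2 to 11, both highest without atrial shunt pool 3. The mean of the fibroblast list, relative to the sham mean of its chamber, was 0.25, 0.26 and -0.16 on the atrial shunt arrays and -0.05, 0.29 and -0.02 on the ventricular ones. The 3 arrays with the higher means had the 3 lowest hexokinase differences of the shunt arrays, and the 3 with means below 0 had the 3 highest. Without these last 3 arrays, which leaves 1 ventricular shunt array, the list medians were 0.25 (fibroblast), 0.304 (matricellular) and 0.161 (collagen). With all arrays they were 0.156, 0.135 and 0.103.

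**Figure D3:**
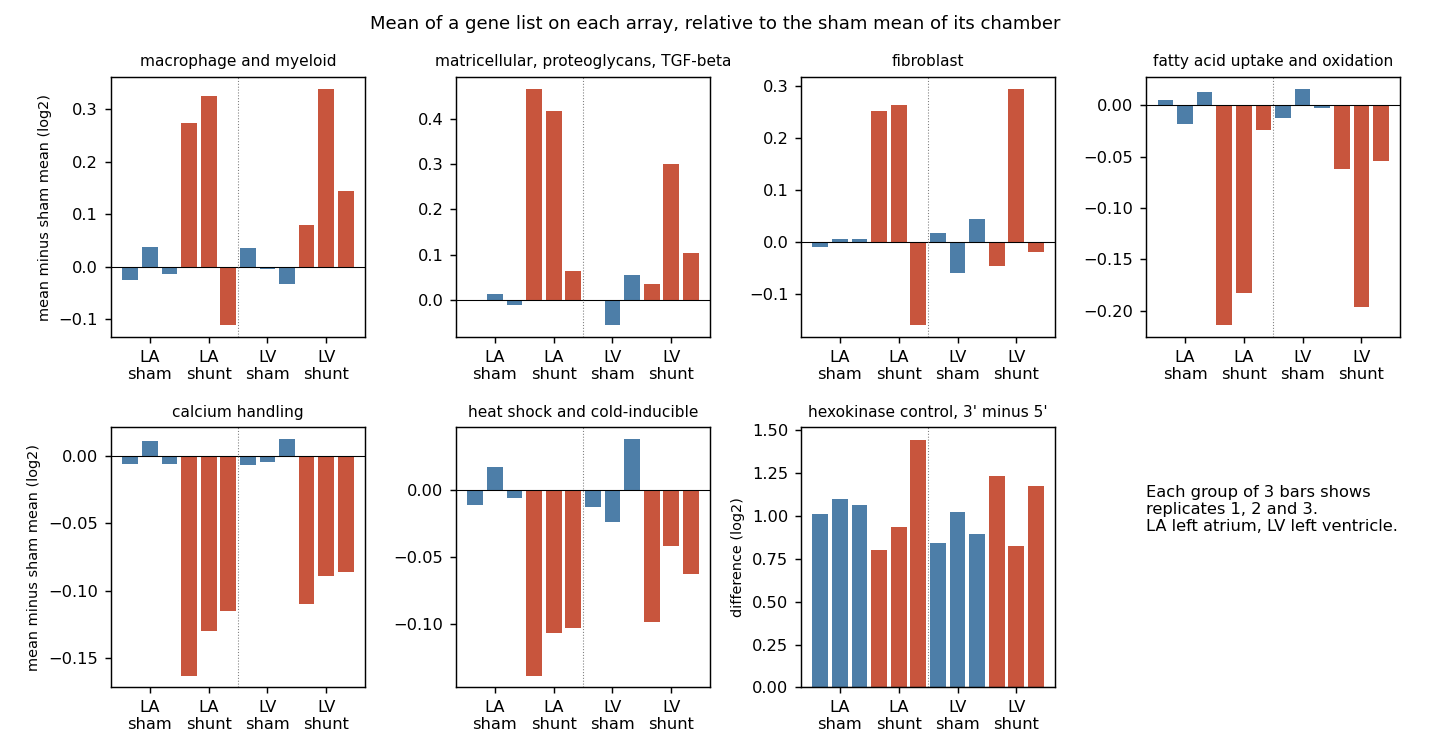
Mean log2 value of the measured genes of 6 lists on each array, relative to the sham mean of its chamber, and the hexokinase 3 prime minus 5 prime difference (log2) of the same arrays, sham in blue and shunt in red, replicates 1 to 3 in each group. The macrophage, matricellular and fibroblast means are highest on atrial shunt arrays 1 and 2 and ventricular shunt array 2, which have the lowest hexokinase differences of the shunt arrays, while the calcium handling and heat shock means are below 0 on all 6 shunt arrays.

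MHC class II molecules present peptides to helper T cells on the surface of macrophages, dendritic cells and B cells. Of the 19 measured genes of class II and antigen presentation 4 rose (21.1%), RT1-Da, RT1-Db1, RT1-Ba and RT1-DMb, none fell, and the median was 0.09. Without 1 array, 3 to 5 rose. The promoters of such genes are known for an X box and a Y box to which the class II transactivator complex assembles. The sequences below are of 3 of the 4 genes that rose, as RT1-DMb had no entry among the promoters used. They are the 150 bases before the start site, 5′ to 3′ on the gene's strand, from RefSeq on GRCr8, for RT1-Da (chr20:4515265-4515414, plus strand), RT1-Db1 (chr20:4560163-4560312, minus strand) and RT1-Ba (chr20:4576907-4577056, plus strand). Capitals mark the core of the X box, GCAAC, and of the Y box, CCAAT, searched on both strands, so that ATTGG is the Y box core read on the other strand.
RT1-Da: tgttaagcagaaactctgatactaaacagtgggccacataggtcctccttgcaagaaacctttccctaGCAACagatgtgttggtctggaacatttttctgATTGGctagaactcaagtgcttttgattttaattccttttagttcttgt
RT1-Db1: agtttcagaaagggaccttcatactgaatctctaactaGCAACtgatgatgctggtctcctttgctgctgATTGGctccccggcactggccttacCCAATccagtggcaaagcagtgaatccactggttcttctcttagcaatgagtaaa
RT1-Ba: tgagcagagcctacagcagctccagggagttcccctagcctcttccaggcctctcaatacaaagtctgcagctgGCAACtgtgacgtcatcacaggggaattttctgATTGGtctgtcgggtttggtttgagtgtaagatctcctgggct
Each of the 3 held both cores. Of 24206 rat promoters cut in the same way, 19.3% held the X box core, 23.9% the Y box core and 4.65% both, and a match is a string of letters, not a bound site.

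RT1-Da, the alpha chain of the DR-like molecule, had 8.11, 8.19 and 8.01 in atrial sham, 8.88, 8.86 and 8.44 in atrial shunt, 8.81, 8.99 and 8.78 in ventricular sham and 9.54, 9.58 and 9.50 in ventricular shunt pools. No shunt array overlapped the sham arrays of its chamber. It rose by 0.65 ± 0.08 (adjusted p = 0.00207), 0.62 in atrium and 0.68 in ventricle. RT1-DMb, a chain of the molecule that loads peptides, had 6.03, 6.04 and 5.51 in atrial sham, 6.49, 6.72 and 6.16 in atrial shunt, 7.29, 7.68 and 7.28 in ventricular sham and 8.31, 8.12 and 8.14 in ventricular shunt pools. It rose by 0.69 ± 0.12 (adjusted p = 0.0128), and its arrays were apart in both chambers although it passed in neither alone. RT1-Ba, the alpha chain of the DQ-like molecule, rose by 0.64 ± 0.11 (adjusted p = 0.0125), with 0.53 and 0.74 in atrium and ventricle, and 3 other tested probe sets of this gene did not pass. RT1-Db1, the partner chain of RT1-Da, rose by 0.64 ± 0.16 (adjusted p = 0.0446, kept in 1 of 12 fits), but atrial shunt pool 3, at 6.15, lay below all 3 atrial sham pools, which had 6.31, 6.32 and 6.26.

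Other class II genes did not pass. Cd74, the invariant chain that class II molecules need for their assembly and the brightest gene of the group, differed by 0.04 ± 0.06 (adjusted p = 0.737). Ciita, the class II transactivator, differed by 0.14 ± 0.08 (adjusted p = 0.32), and RT1-DMa, the partner of RT1-DMb, by 0.17 ± 0.07 (adjusted p = 0.196). The probe sets of RT1-Bb, the partner of RT1-Ba, disagreed. Its brightest differed by 0.02 (adjusted p = 0.974). A second, picked for its values and given as a description with no test, read between 3.27 and 3.69 on all 6 sham arrays, under the level of 4.01 needed for testing, which its mean passed through the shunt arrays. It read 3.68, 6.75 and 5.55 in atrial and 8.03, 7.47 and 6.36 in ventricular shunt pools. On it, 5 of the 6 shunt arrays were far above every sham array and atrial shunt pool 1 was at the sham level. Class II genes are alike in sequence, and on an array the signal of a gene cannot be told apart from that of a close relative.

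**Figure D4:**
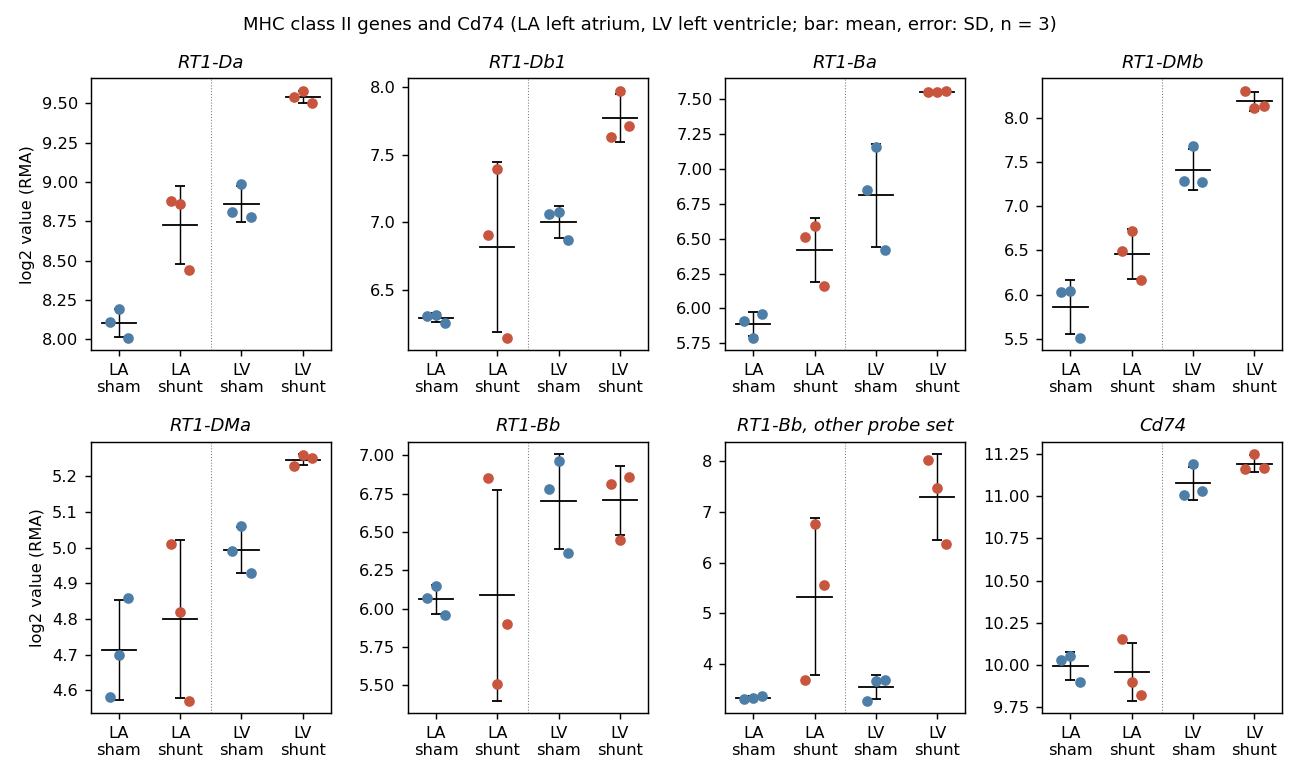
Log2 values of 6 MHC class II genes, of a second RT1-Bb probe set and of Cd74 on the 12 arrays, sham in blue and shunt in red, with the mean and SD of 3 arrays. RT1-Da, RT1-Ba and RT1-DMb are higher after shunt in both chambers with no overlap, Cd74 is level, and the second RT1-Bb probe set is near 3.5 on all sham arrays and above 5.5 on 5 shunt arrays.

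Among 31 macrophage and myeloid genes 3 rose and none fell (9.68%): Lyz2, Cybb and Clec4a3. Lyz2, the lysozyme of macrophages, rose by 0.49 ± 0.10 (adjusted p = 0.0236, kept in 6 of 12 fits). Cybb, the catalytic chain of the phagocyte oxidase, rose by 0.48 ± 0.11 (adjusted p = 0.0308, kept in 5), and the lectin receptor Clec4a3 by 0.56 ± 0.13 (adjusted p = 0.031, kept in 4). Of the list, 26 genes were above 0 and 5 below, with a median of 0.17. Of the 6 defining macrophage markers Lyz2 alone passed, while Csf1r, the receptor for macrophage growth factor, differed by 0.22 (adjusted p = 0.303) and Cd68 by 0.12 (adjusted p = 0.586). Lyz2, Cybb and Clec4a3 were all lost without atrial sham pool 1 or 3, atrial shunt pool 2, or ventricular sham pool 2 or 3. No gene of the list was called without atrial sham pool 3, and 13 rose without atrial shunt pool 3. Without the 3 shunt arrays of highest hexokinase difference the list's median was 0.301. The list's mean was -0.11 on atrial shunt array 3 and between 0.08 and 0.34 on the other 5 shunt arrays.

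Some single chemokine and vascular genes kept their calls more often, while the counts of their lists also changed with single arrays. Cxcr4, the receptor for the chemokine Cxcl12, had 6.29, 6.02 and 6.51 in atrial sham, 6.89, 6.96 and 6.68 in atrial shunt, 6.89, 6.75 and 7.06 in ventricular sham and 7.40, 7.46 and 7.44 in ventricular shunt pools. It rose by 0.55 ± 0.09 (adjusted p = 0.00759), equally in both chambers, and its 2 other tested probe sets passed too. Ccl2, which draws monocytes into tissue, rose by 0.51 ± 0.10 (adjusted p = 0.0193, lost without ventricular sham pool 2). On the list of 31 chemokine, cytokine and interferon genes 5 rose and none fell (16.1%), 1 without ventricular sham pool 2 and 7 without atrial shunt pool 3. Of 14 complement genes 2 rose (14.3%), C3 and Serping1, kept in 3 and 1 of 12 fits, with 0 to 6 when an array was left out.

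Angpt2, a secreted ligand of the endothelial Tie2 receptor that loosens vessels for remodelling, had 5.96, 5.95 and 5.89 in atrial sham, 7.03, 6.76 and 6.45 in atrial shunt, 5.24, 5.42 and 4.97 in ventricular sham and 5.84, 6.18 and 5.69 in ventricular shunt pools. Its shunt and sham arrays did not overlap. Angpt2 rose by 0.75 ± 0.11 (adjusted p = 0.00614), 0.81 in atrium and 0.70 in ventricle. Of 33 endothelial genes 3 rose (9.09%), with Sox18, a transcription factor of vessel development, at 0.37 ± 0.07 (adjusted p = 0.0184), and none of the 4 defining endothelial markers passed. The other rises were Ptprb and Ecscr, kept in 7 and 4 of 12 fits. Without 1 array, 1 to 6 genes of this list rose.

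Several genes of fuel use fell in both chambers. Pdk4, the kinase that shuts glucose carbon out of the citric acid cycle, had 8.54, 8.54 and 8.56 in atrial sham, 7.68, 7.51 and 7.69 in atrial shunt, 9.35, 9.49 and 9.39 in ventricular sham and 9.04, 8.86 and 9.08 in ventricular shunt pools. The spread within a group was small next to the gap between groups in each chamber. Pdk4 fell by 0.67 ± 0.05 (adjusted p = 0.000641). Lpin1, a phosphatidate phosphatase and coactivator of fat oxidation genes, fell by 0.72 ± 0.08 (adjusted p = 0.000876), and Retsat, which saturates retinol, by 1.00 ± 0.16 (adjusted p = 0.00881). Irs2, an adaptor of the insulin receptor, fell by 0.69 ± 0.13 (adjusted p = 0.0176) and passed in neither chamber alone, with 0.70 of fall in atrium and 0.68 in ventricle.

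Of 42 genes of fatty acid uptake and oxidation 6 fell and none rose (14.3%), 35 were below 0, and the median was -0.14 in atrium and -0.08 in ventricle. Crat, carnitine acetyltransferase, had 8.76, 8.94 and 8.90 in atrial sham, 8.48, 8.53 and 8.64 in atrial shunt, 9.89, 10.07 and 9.84 in ventricular sham and 9.64, 9.64 and 9.71 in ventricular shunt pools. Its arrays were apart in both chambers by a narrow gap. Crat fell by 0.29 ± 0.05 (adjusted p = 0.0168), and Slc27a1, a fatty acid transporter, by 0.30 ± 0.06 (adjusted p = 0.0198, kept in 11 of 12 fits). Cpt2, the inner carnitine palmitoyltransferase, fell by 0.20 ± 0.05 (adjusted p = 0.0389, kept in 1 of 12 fits). Hadha, Mlycd and the droplet protein Plin5 were the other members called lower, kept in 5, 1 and 2 of 12 fits. With its probe sets averaged Hadha differed by -0.039 and was not called. The count went from 1 without ventricular sham pool 2 to 11 without atrial shunt pool 3. Without the 3 shunt arrays of highest hexokinase difference the median of the common effect was -0.189, against -0.136 with all arrays.

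On the list of 33 PPAR, ERR and other metabolic regulators and their targets 6 were called (18.2%). The nuclear receptors Rxrg (-0.26, kept in 2 of 12 fits) and Nr1h3 (-0.27, kept in 2) fell with Pdk4 and Ucp2. The other 2, which rose, are no regulators but the pantetheinase Vnn1 (0.41 ± 0.05, adjusted p = 0.00232) and the sterol exporter Abcg1 (0.49 ± 0.07, adjusted p = 0.00605). Of 52 genes of the citric acid cycle and respiratory chain 1 rose, Cox7a1 (0.43 ± 0.11, adjusted p = 0.0465, kept in 3 of 12 fits), none fell, and the median was -0.02. Pfkp, the platelet form of phosphofructokinase, rose by 0.44 ± 0.07 (adjusted p = 0.00884) and Pygm, muscle glycogen phosphorylase, fell by 0.22 ± 0.04 (adjusted p = 0.0229, kept in 8 of 12 fits). They were the only calls among 31 genes of glucose uptake and glycolysis (6.45%), near the 5.06% of all genes.

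Genes of calcium handling fell where they moved, 4 of 38 (10.5%) with none higher, and 4 to 6 when an array was left out. Slc24a3, a potassium-dependent sodium-calcium exchanger, had 8.36, 8.54 and 8.51 in atrial sham, 7.55, 7.71 and 7.86 in atrial shunt, 6.54, 6.47 and 6.49 in ventricular sham and 5.86, 5.60 and 5.72 in ventricular shunt pools. The groups were apart by more than their spread in each chamber. Its effects were nearly equal, -0.76 in atrium and -0.77 in ventricle, and it fell by 0.77 ± 0.06 in common (adjusted p = 0.000641). Cacng6, a gamma subunit of L-type calcium channels, fell by 0.52 ± 0.07 (adjusted p = 0.00273), Cacna2d1, an alpha2delta subunit, by 0.27 ± 0.05 (adjusted p = 0.0112), and Phkg1, the calcium-activated phosphorylase kinase, by 0.49 ± 0.09 (adjusted p = 0.0126). The calcium pump of the sarcoplasmic reticulum, Atp2a2, differed by -0.05 ± 0.04 (adjusted p = 0.446).

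Of 32 potassium, sodium and junction channel genes 3 rose and 4 fell (21.9% called, against 5.06% of all genes). Kcnd2, a pore subunit of the transient outward potassium current, fell by 0.51 ± 0.06 (adjusted p = 0.00232), 0.64 in atrium and 0.37 in ventricle, and Trpm7, a cation channel with a kinase domain, rose by 0.54 ± 0.06 (adjusted p = 0.000876). The other rises were Kcnip2 (0.69, the highest value on the list, kept in 8 of 12 fits) and Gja4 (0.35, kept in 11). The other falls were Scn4b (-0.63, but -0.075 in ventricle), Kcnj12 (-0.46, but -0.12 in ventricle) and Kcnj5 (-0.27, kept in 1 of 12 fits). Chrm2, the muscarinic receptor through which the vagus slows the heart, fell by 0.31 ± 0.06 (adjusted p = 0.0196) without passing in either chamber alone. It was 1 of 3 genes that fell among 27 of natriuretic, adrenergic and vasoactive signalling (11.1% called, against 5.06% of all genes). The others were the alpha1D adrenoceptor Adra1d (kept in 9 of 12 fits) and the receptor kinase Grk5 (kept in 5). Without 1 array, 1 to 3 genes of this list fell.

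Several stress-inducible genes fell in both chambers. Nr4a1, an orphan nuclear receptor induced within minutes by many stimuli, had 9.10, 7.71 and 8.19 in atrial sham, 6.82, 6.53 and 6.73 in atrial shunt, 7.31, 7.0 and 7.20 in ventricular sham and 6.20, 6.21 and 6.08 in ventricular shunt pools. Its sham arrays spread widely in atrium, and all lay above the shunt arrays. Nr4a1 fell by 1.32 ± 0.18 (adjusted p = 0.00387), the largest fall among called genes apart in both chambers. Of 37 immediate early genes 5 fell and none rose (13.5%), including the flow-responsive factor Klf2 (-0.46 ± 0.10, adjusted p = 0.0229, kept in 7 of 12 fits), the kinase Sik1 (-0.36 ± 0.07, adjusted p = 0.0156) and the phosphatase Dusp1 (-0.21 ± 0.05, adjusted p = 0.0283, kept in 5 of 12 fits). Sik1 was not called with its probe sets averaged. Of 23 glucocorticoid-responsive genes 4 fell (17.4%), Rasd1, Pdk4, Errfi1 and Dusp1, and the members overlap with the lists above.

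Of 31 heat shock and cold-inducible genes 5 fell (Hspa1a, Hsph1, Dnajb1, Dnajb4 and Fkbp4), while 1 rose (19.4% called), Rbm3, an RNA-binding protein induced by cold, by 0.42 ± 0.07 (adjusted p = 0.00782). Hspa1a, the inducible Hsp70, had 8.31, 8.21 and 8.21 in atrial sham, 7.64, 7.75 and 7.63 in atrial shunt, 7.47, 7.35 and 7.37 in ventricular sham and 6.95, 7.20 and 7.02 in ventricular shunt pools. All shunt arrays were below the sham arrays of their chamber. It fell by 0.46 ± 0.05 (adjusted p = 0.00204), and a signal from its near-identical copy Hspa1b cannot be told apart. Hsph1, the large Hsp110 chaperone, fell by 0.34 ± 0.05 (adjusted p = 0.00846) and Fkbp4, an Hsp90 partner of steroid receptors, by 0.29 ± 0.06 (adjusted p = 0.023, kept in 7 of 12 fits). The list's count of falls went from 2 (without atrial sham pool 1 or 3 or ventricular sham pool 2) to 6 (without ventricular shunt pool 2).

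Heat shock factor binds inverted repeats of GAA. Of the 5 heat shock genes that fell, 2 promoters that hold a match to the letters marked below are shown as examples. They are Hsph1 (chr12:10427218-10427367, plus strand) and Fkbp4 (chr4:163397919-163398068, minus strand), again as the 150 bases before the start from RefSeq on GRCr8. Capitals mark GAA and TTC, in either order and 2 bases apart, and 2 matches that overlap in Hsph1 form 1 run.
Hsph1: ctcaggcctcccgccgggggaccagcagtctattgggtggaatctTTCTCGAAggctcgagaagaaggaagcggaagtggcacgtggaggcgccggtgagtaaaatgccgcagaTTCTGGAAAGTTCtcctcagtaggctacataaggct
Fkbp4: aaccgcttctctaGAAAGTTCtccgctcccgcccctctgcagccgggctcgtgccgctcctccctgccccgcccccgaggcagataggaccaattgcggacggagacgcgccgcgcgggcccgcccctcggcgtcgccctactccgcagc
Of the 24206 promoters 7.87% held such a pair in either order. The Dnajb1 promoter held 1 as well and the Hspa1a window held none of these letters. Dnajb4 had no entry among the promoters used, and a match outside the 150 bases would be missed.

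Growth-related genes were among the largest falls. Igfbp3, which binds the IGF growth factors in blood and tissue, fell by 0.91 ± 0.09 (adjusted p = 0.000876), with 7.12, 7.40 and 7.36 after sham and 5.92, 6.17 and 6.11 after shunt in atrium, and 6.52, 6.68 and 7.08 after sham and 6.28, 6.11 and 6.12 after shunt in ventricle. The groups did not overlap in either chamber. H19, an imprinted noncoding RNA, fell by 1.30 ± 0.14 (adjusted p = 0.000878), and Igf2, the growth factor that shares its imprinted locus, by 0.55 ± 0.07 (adjusted p = 0.00232). Both moved more in atrium, H19 by -2.04 against -0.57 and Igf2 by -0.88 against -0.21. These 3 genes were called among 21 of the IGF axis and imprinted genes (14.3%), and kept their calls without each array in turn.

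Wfdc1, a secreted protein with a protease inhibitor fold, had 6.50, 6.60 and 6.83 in atrial sham, 5.92, 5.81 and 5.32 in atrial shunt, 8.55, 8.62 and 8.92 in ventricular sham and 7.51, 7.27 and 7.59 in ventricular shunt pools. It was lower on every shunt array, and it fell by 1.10 ± 0.11 (adjusted p = 0.000876), 0.96 in atrium and 1.24 in ventricle. Txn2, the mitochondrial thioredoxin, fell by 0.48 ± 0.06 (adjusted p = 0.00299), 0.37 in atrium and 0.58 in ventricle. Ptgr1, a reductase that inactivates leukotriene B4, gave the smallest p among rises that passed in neither chamber alone, 0.43 ± 0.06 (adjusted p = 0.00549). The lipid droplet coat protein Plin3 was next, 0.34 ± 0.05 (adjusted p = 0.0066). Pxdc1 (0.24), C18h5orf63 (0.42) and Jpt1 (0.24, but 0.042 and not called with its probe sets averaged) came after. The corresponding falls were Nudt4, which splits diphosphoinositol phosphates (-0.41 ± 0.06, adjusted p = 0.00576), and the mitochondrial acyl-CoA synthetase Acsf2 (-0.39 ± 0.06, adjusted p = 0.00778), with Fam234b (-0.30) and the tetraspanin Tspan18 (-0.40) after them. Nt5dc1 was also called lower, but its 6 shunt values, 3.17 to 3.96, were all under the level of 4.01 needed for testing and its sham values were 4.12 to 4.62, so the size of its fall is not given. Prph, the intermediate filament of peripheral neurons, rose by 0.77 ± 0.09 (adjusted p = 0.00139). Of the 18 measured nerve and Schwann cell genes (22.2% called, against 5.06% of all genes) 1 other rose (Cnp, kept in 2 of 12 fits) while 2 fell.

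Of the other large changes apart in both chambers, Sbsn, a secreted protein known from epidermis, rose by 0.96 ± 0.17 (adjusted p = 0.0126), and Slc16a12, a creatine transporter, by 0.89 ± 0.14 (adjusted p = 0.00737). The ventricular sham arrays of both were under the level of 4.01 needed for testing. The uncharacterised gene LOC102553868 rose by 0.95 ± 0.09 (adjusted p = 0.000876), and Iqgap2, a scaffold of the actin cytoskeleton, fell by 0.76 ± 0.09 (adjusted p = 0.00207).

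Some of the largest differences were among the least secure. Itga1, the alpha1 integrin that binds collagen, had 7.15, 7.03 and 6.54 in atrial sham, 8.10, 7.31 and 8.20 in atrial shunt, 7.50, 7.52 and 6.16 in ventricular sham and 8.61, 7.70 and 8.67 in ventricular shunt pools. The groups were apart in both chambers, and the 3 highest shunt arrays were the 3 with the highest hexokinase difference. Itga1 rose by 1.12 ± 0.27 (adjusted p = 0.0385), a call kept in 3 of the 12 fits and with the hexokinase difference as a covariate, at 1.02. Without those 3 arrays, which leaves 1 ventricular shunt array, the difference was 0.72. Pik3r1, a regulatory subunit of phosphoinositide 3-kinase, rose by 1.09 ± 0.28 (adjusted p = 0.0465, kept in 3 of 12 fits). The call was kept with the covariate (1.10), and the difference was 0.91 without those 3 arrays. Pik3r1 had values from 4.86 to 6.57 in sham and from 6.64 to 7.31 in shunt pools over both chambers. Dnajb6, a co-chaperone of the Z-disc, fell by 0.89 ± 0.16 (adjusted p = 0.0145), kept in all 12 fits and with the covariate, at -0.83. Without the 3 shunt arrays of highest hexokinase difference its difference was -0.74.

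**Figure D5:**
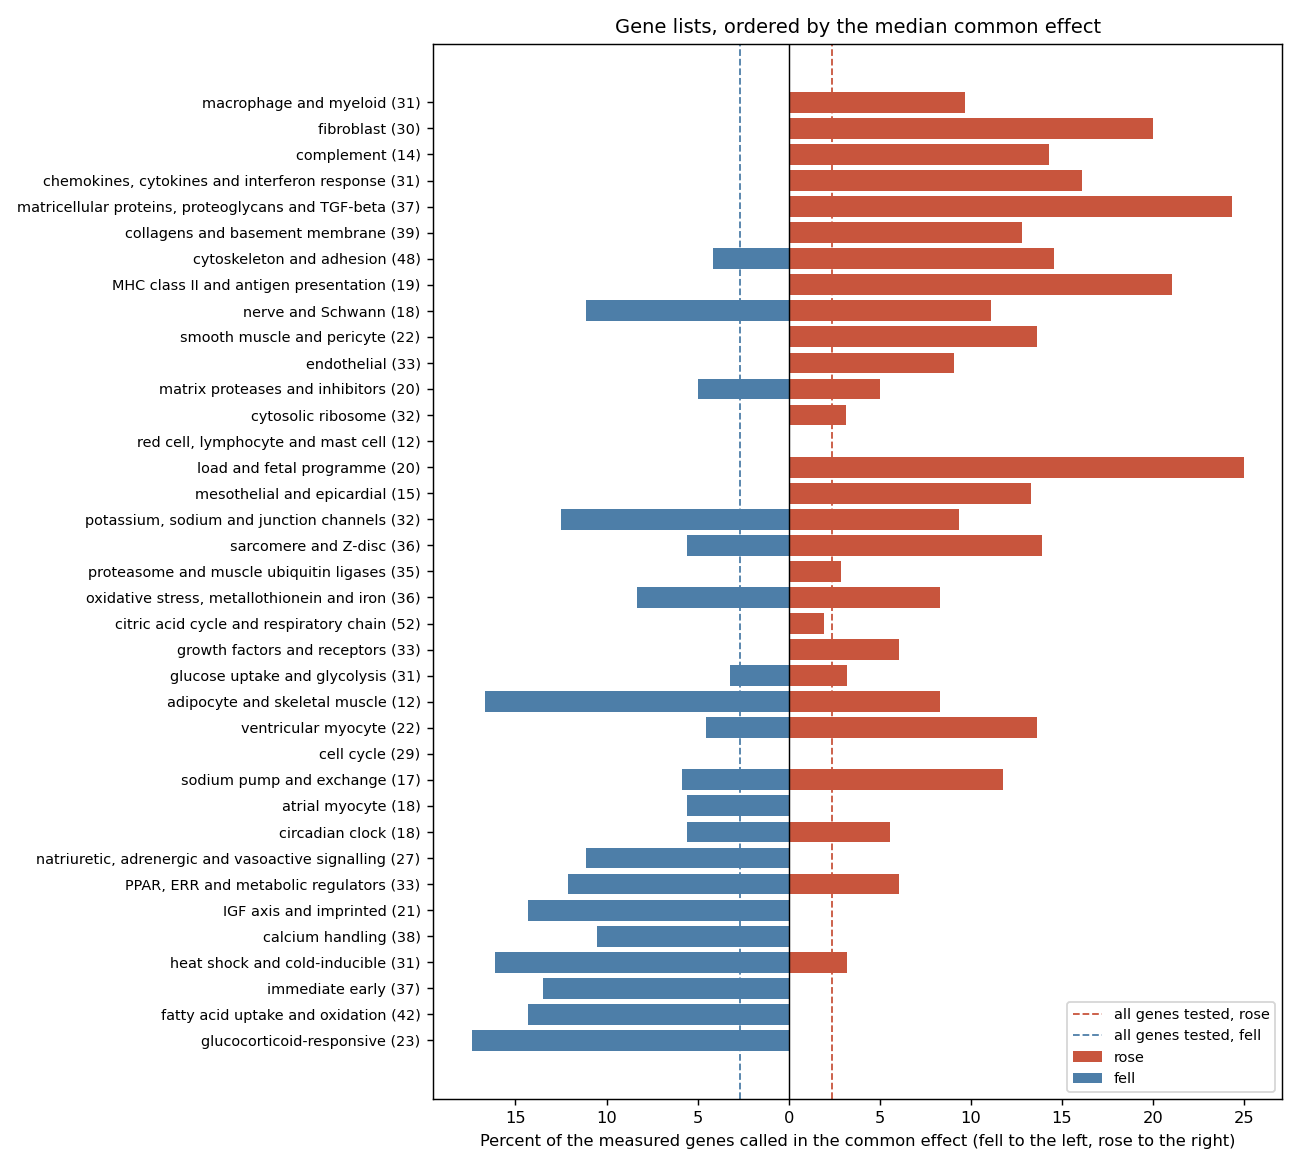
Percent of the measured genes of each of 37 lists that rose (red, to the right) or fell (blue, to the left) in the common effect, with the number measured in brackets and the lists ordered by median effect; dashed lines mark 2.38% and 2.69%, the shares over all 10606 genes. Load, matricellular, class II and fibroblast lists have the longest red bars, glucocorticoid, adipocyte and muscle, heat shock, fatty acid and IGF lists the longest blue ones, and the cell cycle list and the red cell, lymphocyte and mast cell list have no bar.

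Several processes stayed at or near the background. None of 29 cell cycle genes passed in limma (median -0.05), and 1 each of 32 cytosolic ribosome genes (Eef1a1), 35 proteasome and ubiquitin ligase genes (Psme4) and 52 respiratory chain and citric acid cycle genes did. The cardiac myocyte markers Myh6, Tnnt2, Tnni3 and Ryr2 differed by -0.01, 0.02, 0.02 and -0.13, with adjusted p-values of 0.923, 0.793, 0.883 and 0.125.

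No probe set passed for a difference between the chambers in the shunt effect (limma, smallest adjusted p 0.0854), while 1229 of 18625 (6.6%) had an unadjusted p under 0.05. The count of 0 became 19 without atrial shunt pool 3 and 11 with array weights. Of the 537 called genes, 532 had the same sign in both chambers, a share that choosing genes by the mean of both effects raises by itself. Of the same 537 genes, 90 had an unadjusted p under 0.05 for the difference, against 720 (6.79%) of all 10606 genes. Both contrasts use the same estimate of a gene's spread, so choosing called genes can raise this count by itself too. The 3 called genes of smallest p for the difference were Gpr15lg, a secreted ligand of the receptor Gpr15, Rasd1, a Ras-like protein induced by glucocorticoids, and Slc17a7, a vesicular glutamate transporter. Gpr15lg fell by 0.90 ± 0.10 in common (adjusted p = 0.00106), but its effects were -1.68 in atrium and -0.12 in ventricle, where its values lay between 3.42 and 3.85, under the level needed for testing. Rasd1 fell by 1.16 ± 0.12 in common (adjusted p = 0.000876), with 7.15, 7.18 and 7.38 after sham and 5.19, 5.44 and 5.24 after shunt in atrium. In ventricle Rasd1 had 4.47, 4.88 and 4.91 after sham and 4.42, 4.0 and 4.73 after shunt, which overlap. Thbs4, a thrombospondin of tendon and injured muscle, had the largest rise of the 537 called genes, 1.48 ± 0.29 (adjusted p = 0.0179, lost without atrial sham pool 3), with effects of 2.86 in atrium and 0.11 in ventricle. Its atrial values were 5.16, 4.40 and 4.43 after sham and 8.75, 7.15 and 6.69 after shunt, with no overlap. Its ventricular values were 5.15, 4.89 and 5.04 after sham and 4.93, 5.30 and 5.17 after shunt and overlapped.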

How the data were processed

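Total RNA from the 12 pools was labelled with biotin and hybridised to 1-colour Affymetrix rat arrays. The deposited values are RMA values on the log2 scale, per the submitters' processing notes and the range of the values (2.05 to 14.29). The version of RMA, and which arrays were normalized together, are not given in the sources used here. The number of arrays limits the precision.

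Of 31099 probe sets, 57 controls were left out and the 18625 at or above the 40th percentile of mean value (log2 4.01) were tested with limma 3.58.1 in R 4.3.3, 1 mean per group, 8 residual degrees of freedom, two-sided, adjusted by Benjamini-Hochberg with a threshold of 0.05. A fold change is 2 to the power of the log2 difference. The p-values measure the spread between pools. A gene was its probe set of highest mean. Symbols came from the platform annotation (20826 probe sets with 1 symbol, 436 with several, 9780 unnamed), and 20758 were updated by Entrez identifier to RefSeq on GRCr8. Of the called probe sets, 172 had no single symbol and were counted only.

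The genes to be named, of which the text names most, were the 10 largest rises and falls apart in both chambers, the 5 of smallest p in each direction that passed in neither chamber, the 3 largest rises and falls not apart in both, up to 3 called members of smallest p per list, 8 genes always named (Nppa, Nppb, Myh6, Myh7, Acta1, Atp2a2, Col1a1, Col3a1), and the 3 of smallest p for the chamber difference. Other list members and class II genes were named after their values were seen. The members, the 37 lists and the tests were chosen with earlier results of these data known. In simulated data the fit recovered 44% of 50 changed probe sets at 0.25, 84% at 0.5 and 96% at 1 (log2), with 4 other calls among 18625. The simulated noise was normal and independent between probe sets and arrays, and each change was equal in both chambers. Deviations that many genes of an array share were not simulated, so these shares may not hold for the real arrays. The alternatives tried were other filters, normalizations, priors, array weights, probe set rules, a minimum fold, an additive fit, a replicate block, a hexokinase covariate and arrays left out.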

Additional observations from a re-analysis of the deposited data

How the results depend on the processing

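Each array was left out in turn and 14 other settings were tried. The count of called probe sets, 894, became 1664 with array weights, 1791 with the hexokinase difference as a covariate, 0 with a minimum fold of 1.5 in limma's treat test (39 at an unadjusted p under 0.05) and 309 to 1190 without 1 array. The 537 called genes became 987, 1049, 0 and 182 to 739 in the same order, and the 394 genes apart in both chambers became 0 with the minimum fold, 630 without the 3 shunt arrays of highest hexokinase difference and 161 to 523 without 1 array. The count for a difference between the chambers, 0, became 1 with 1 probe set per gene, with the hexokinase covariate and with a trended and robust prior, 2 with probe sets averaged per gene, 11 with array weights, 15 without those 3 arrays and 0 to 19 without 1 array. The share of called probe sets that was higher went from 40.9% to 47.8% after further quantile normalization, 48.3% after cyclic loess and 49.1% with the hexokinase covariate. The cause of these changes was not tested. The counts of 630 and 15 come from a fit with 1 ventricular shunt array. With fewer shunt arrays the groups lie apart more easily, and 1 array shows no spread. These counts cannot be compared with 394 and 0, and no conclusion is drawn from them.

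The replicate numbers were not taken as pairs in the main fit. Same-numbered atrial and ventricular arrays had deviations that correlated at 0.23, 0.26 and 0.07 in sham and -0.24, 0.44 and 0.45 in shunt pools. Those of different numbers correlated at -0.235 to 0.033 in sham and -0.622 to 0.451 in shunt pools. These values do not settle whether same-numbered pools shared rats. If they did, the main fit treats tissues of the same rats as independent. With the replicate block over all groups 868 probe sets passed, and with the replicate block within an operation as a random term 526 probe sets and 320 genes did, and 1 for the difference between the chambers.

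Of the 108 named genes that were called, none changed sign under any setting, and 63 kept their call without each array in turn. Among the genes that were not called, Col1a1 (-0.02) turned to 0.034 with the hexokinase covariate and 0.006 with its probe sets averaged. It was 0.187 without the 3 shunt arrays of highest hexokinase difference and lay between -0.099 and 0.034 without 1 array. Atp2a2 (-0.05) turned to 0.023 with its probe sets averaged. Without 1 array Myh6 lay between -0.02 and 0.005 and Col3a1 between -0.001 and 0.07. With 3 arrays per group, 44% of simulated differences of 0.25 were recovered, under independent noise and equal changes in both chambers.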
